A study of Mus musculus with 4 samples.

Results

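Cycling T cells are the T cells of the liver that carried transcripts of cell division when the tissue was taken. They were chosen by UMI counts, that is by numbers of distinct RNA molecules, in each cell barcode. Barcodes with fewer than 500 genes, or with over 20% of their UMIs from mitochondrial genes, were dropped. Such a cell counted as a T cell with at least 2 UMIs of the T cell receptor partners Cd3d, Cd3e and Cd3g, 0 UMIs of the B cell genes Cd79a and Cd79b, and no more than 3 UMIs of the macrophage genes C1qa, C1qb and C1qc. It counted as cycling with at least 3 UMIs over Mki67, Top2a, Birc5 and Ube2c, of which at least 2 came from Mki67 and Top2a. This gave 564 cycling cells among 8558 T cells and 31290 kept cells.

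The cells came from perfused and digested livers of male C57BL/6J mice. The NCD group ate a normal chow diet, the HFD group ate a high-fat diet, and the JQF group ate the high-fat diet and was then given Jiangtang Qingre Formula, a mixture of herbs, by mouth, while the NCD and HFD groups received water. There was 1 library for NCD, 2 for HFD and 1 for JQF, each from 1 mouse by the study's methods, so p-values rest on the spread of the HFD pair. GEO's sample labels also name a stem cell line and a single immune cell type, neither of which describes these mixed liver suspensions. Called cells held 69445244 to 109446496 UMIs per library, and each pair of libraries shared 14 to 30 called barcodes and 0 barcodes of cycling T cells.

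A T cell that has met its antigen, or a growth cytokine such as interleukin 2 or interleukin 15, leaves rest, copies its DNA and divides. Genes of DNA copying, such as Pcna and the Mcm helicase subunits, peak early in this cycle. Genes of chromosome separation, such as the cyclin Ccnb2, the kinase gene Cdk1 and the anaphase enzyme gene Ube2c, peak late. The liver holds several T lineages that can divide in place. Cd8+ cells kill target cells, conventional Cd4+ cells direct other immune cells, Foxp3+ regulatory cells restrain them, and natural killer T cells, marked by the transcription factor gene Zbtb16 and an invariant receptor chain built from Trav11, respond to lipid antigens.

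Division genes share short promoter words, and the upstream stretches of 3 genes of the rule are shown because they hold these words in different numbers. The sequences are from RefSeq on GRCm38.p6 and run 5′ to 3′ up to the base before the transcription start. Capitals mark the cell cycle gene homology region (CHR, TTTGAA on either strand) and the CCAAT box (CCAAT on either strand), which did not overlap each other. Mki67, whose protein coats mitotic chromosomes, lies on chromosome 7 on the minus strand, and the stretch chr7:135716380-135716529 held 2 CHR words and 1 CCAAT box. Top2a, the topoisomerase that untangles sister chromatids, lies on chromosome 11 on the minus strand, and the stretch chr11:99024190-99024339 held 1 CHR word and 4 CCAAT boxes. Birc5, a subunit of the chromosomal passenger complex, lies on chromosome 11 on the plus strand, and the stretch chr11:117849087-117849236 held 0 of either word.
Mki67: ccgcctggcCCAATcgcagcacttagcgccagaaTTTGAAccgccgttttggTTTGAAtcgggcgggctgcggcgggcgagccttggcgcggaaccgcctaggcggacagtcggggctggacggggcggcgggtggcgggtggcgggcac
Top2a: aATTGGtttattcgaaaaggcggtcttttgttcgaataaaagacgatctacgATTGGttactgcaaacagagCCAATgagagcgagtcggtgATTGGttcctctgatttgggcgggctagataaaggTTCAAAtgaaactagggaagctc
Birc5: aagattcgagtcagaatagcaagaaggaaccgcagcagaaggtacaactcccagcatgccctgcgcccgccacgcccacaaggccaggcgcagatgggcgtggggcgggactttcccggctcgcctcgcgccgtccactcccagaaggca

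Over the 250 bases before the start, the CHR word was present for 18.3% and the CCAAT box for 37.5% of 27025 genes with a promoter entry. Among 22 genes of the spindle, chromosome condensation and cytokinesis list with an entry, 12 had the CHR word (54.5%) and 15 the CCAAT box (68.2%). Among 15 cyclins, mitotic kinases and their regulators, 5 had the CHR word (33.3%) and 14 the CCAAT box (93.3%). Among 11 kinetochore and centromere genes, 1 had the CHR word (9.09%) and 8 the CCAAT box (72.7%). Among 27 genes of DNA replication and nucleotide synthesis, 4 had the CHR word (14.8%) and 17 the CCAAT box (63.0%). In the last group 8 genes (29.6%) held an E2F word, searched as TTTCCCGC, TTTCGCGC, TTTGCCGC and TTTGGCGC on both strands, against 2.16% of all genes. A match is a description of letters and no evidence of binding. Ube2c and Pclaf had an entry and Stmn1 had none.

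The rule genes were the values that chose the cells, so their levels are a description. Levels are given as CPM, the UMIs of a gene summed over the cycling T cells of a library and scaled to that library's sum. Mki67 stood at 629 CPM in NCD, 580.4 and 643 CPM in HFD replicates 1 and 2, and 680.0 CPM in JQF. Top2a stood at 670.3, 559.7, 568.8 and 547.8 CPM in the same order. These levels lay close together in the 4 libraries. The markers Stmn1, a tubulin-binding protein, and Pclaf, a partner of the replication clamp, were not used by the rule. Both stood higher in the cycling T cells than in the other T cells. In NCD, 61.9% of cycling T cells had a UMI of Stmn1 and 52.4% a UMI of Pclaf. Stmn1 was at 479 CPM in cycling T cells of NCD, 889 and 886 CPM in those of HFD and 837 CPM in those of JQF, against 12.8 to 21.8 CPM in the other T cells. Pclaf was at 213 CPM in NCD, 381 and 490.3 CPM in HFD and 454 CPM in JQF, against 0.742 to 2.21 CPM in the other T cells. A UMI of Mki67 was found in 82.1% to 88.9% of cycling T cells, in 3.61% to 6.91% of the other T cells and in 4.06% to 7.69% of B cells, which were not filtered for division and may include dividing cells. Every marker given for these cells was thus present in each library. Cd3e, 1 of the 3 T cell genes that the rule sums, had a UMI in 93.3% to 97.9% of cycling T cells.

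Just inside the threshold, 12, 19, 29 and 29 cells of NCD, HFD replicates 1 and 2 and JQF held exactly 3 division UMIs. Just outside it, 47, 65, 91 and 95 T cells held 2. The median member held 15, 16, 21 and 34.5 division UMIs in the same order. Cycling T cells also held more UMIs, with a median of 26677, 13747.5, 13411 and 19335 UMIs per cell against 10630.5, 7141, 6385 and 7946 UMIs in the other T cells. The rule asks for absolute UMI counts and so favours deeper cells. Its part in this difference was not tested.

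Some members carried RNA of another cell type. Predicted doublets were the cells with the highest scores of Scrublet, a doublet scorer, up to a share set beforehand for each library. They were 15.9%, 15.1%, 15.0% and 30.8% of cycling T cells in NCD, HFD replicates 1 and 2 and JQF, against 4.55% to 6.99% of the other T cells. At least 10 UMIs of an endothelial, macrophage, dendritic, neutrophil or B cell list were found in 17.5%, 5.66%, 9.63% and 17.8% of members. In NCD the endothelial list accounted for 10 of 11 such cells, and in JQF the dendritic list reached 10 UMIs in 26 cells and the macrophage list in 19. Summed over the 8 endothelial genes, the level was 2856 CPM in cycling T cells of NCD and 65.6 to 277 CPM in the other libraries. Results are therefore given with and without these mixed cells where they matter. Epithelial, hepatocyte and erythroid genes were not used to mark mixed cells, so RNA of other cells can remain once the mixed cells are removed.

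Cycling cells made up 7.81% of T cells in NCD (63 of 807), 5.30% in HFD replicate 1 (106 of 2000), 9.10% in HFD replicate 2 (187 of 2054) and 5.63% in JQF (208 of 3697). The exact Clopper-Pearson 95% intervals, which cover counting error only, were 6.05% to 9.88%, 4.36% to 6.37%, 7.89% to 10.4% and 4.91% to 6.42%. The lowest and the highest share were thus the 2 HFD libraries, and NCD and JQF lay between them. As a share of all kept cells the order was different, with 1.05% for NCD, 1.63% and 1.82% for HFD replicates 1 and 2, and 2.44% for JQF. The HFD mean was 7.20% ± 2.69 (SD, n = 2). HFD minus NCD was -0.605 percentage points, with p = 1 in an exact two-sided permutation test over libraries, and 1.30 without HFD replicate 1. JQF minus HFD was -1.58 percentage points, with p = 1 in the same exact test, and 0.326 without HFD replicate 2. The smallest p that 1 library against 2 can give is 0.333, so this design could not reach 0.05. Both differences were smaller than the distance between the HFD replicates.

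**Figure D1:**
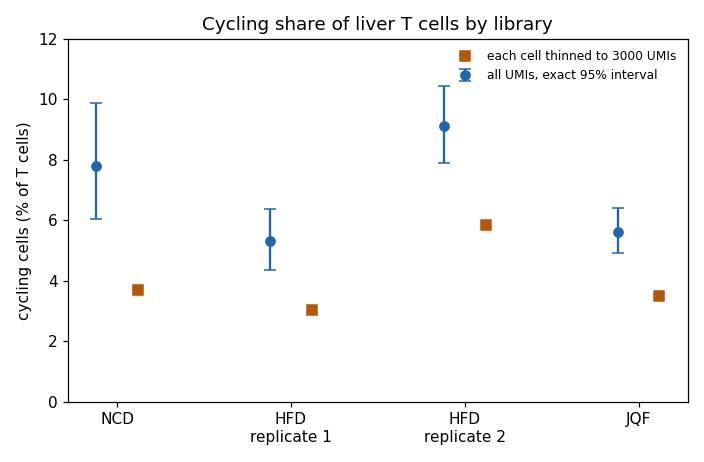
Cycling cells as a percentage of T cells (vertical axis) in each library (horizontal axis), from all UMIs with exact 95% intervals (circles) and after each cell was thinned to 3000 UMIs (squares). HFD replicate 1 at 5.30% and HFD replicate 2 at 9.10% enclose the NCD and JQF values on the circle scale.

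Because the rule counts UMIs, a deeper cell passes it more easily. When each T cell was thinned to 3000 UMIs and the rule applied again, the share was 3.68% for NCD, 3.04% and 5.85% for HFD replicates 1 and 2, and 3.49% for JQF, with 20, 59, 155 and 59 shallower T cells left out. The order of the 2 HFD libraries was kept, and HFD minus NCD changed sign to 0.758 percentage points. Of all kept barcodes that passed the division thresholds whatever their type, 30.0%, 26.0%, 28.8% and 38.4% were cycling T cells in NCD, HFD replicates 1 and 2 and JQF.

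The lineage of the dividing cells also differed between libraries. Each T cell was placed in 1 class by its UMIs of Foxp3, Trdc, Cd4, Cd8a, Cd8b1 and Zbtb16, none of which the rule used. Cd8+ cells, which carry a UMI of the killer cell coreceptor and none of Cd4, were 39.7% of cycling T cells in NCD (25 of 63), 53.8% in HFD replicate 1 (57 of 106), 84.5% in HFD replicate 2 (158 of 187) and 21.6% in JQF (45 of 208). Their intervals were 27.6% to 52.8%, 43.8% to 63.5%, 78.5% to 89.4% and 16.2% to 27.9%. JQF lay below both HFD libraries by intervals that did not overlap. JQF minus HFD was -47.5 percentage points, with p = 0.333 in the exact permutation test, the smallest p this design can give. HFD minus NCD was 29.5 percentage points, with p = 0.667 in the exact permutation test, and the HFD replicates themselves did not overlap in their intervals. As background, a UMI of Cd8a or Cd8b1 was found in 0.716% to 3.42% of B cells, whose median depth was 5381 to 8641 UMIs.

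Zbtb16+ cells, which carry Zbtb16 and no Cd8 UMI, were the largest class in JQF. They were 6.35% of cycling T cells in NCD (4 cells), 14.2% in HFD replicate 1 (15 cells), 4.28% in HFD replicate 2 (8 cells) and 51.0% in JQF (106 cells). The JQF interval ran from 44.0% to 57.9% and the highest bound in another library was 22.3%. JQF minus HFD was 41.7 percentage points, again with p = 0.333 in the exact permutation test, the smallest p possible. HFD minus NCD was 2.87 percentage points with p = 1 in the exact permutation test, and -2.07 without HFD replicate 1. Without the mixed cells the Zbtb16+ share was 1.92%, 14%, 3.55% and 51.5%, and the Cd8+ share was 42.3%, 55%, 84.0% and 21.1%. A stray Zbtb16 UMI was found in 3.1%, 1.25%, 4.27% and 8.10% of B cells in NCD, HFD replicates 1 and 2 and JQF. The same measure, any Zbtb16 UMI, gave 7.94%, 16.98%, 7.49% and 60.6% of cycling T cells. The B cells were shallower, with medians of 8641, 5558, 5381 and 6964 UMIs against 26677, 13747.5, 13411 and 19335 in cycling T cells. Their shares may thus be too low a background for the cycling T cells. The Zbtb16+ members, above all the few in NCD and HFD replicate 2, may include cells with a stray UMI, which was not tested.

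The smaller classes followed other orders. Foxp3+ cells were 17.5% of cycling T cells in NCD (11 cells), with an interval of 9.05% to 29.1%, and 5.66%, 3.21% and 3.37% in HFD replicates 1 and 2 and JQF. Conventional Cd4+ cells were 23.8%, 13.2%, 5.35% and 12.5% in the same order. Trdc+ cells, which carry the constant gene of the delta receptor chain, numbered 1, 0, 0 and 3. Cells with both Cd4 and Cd8 UMIs numbered 6, 7, 3 and 9, and their median depth of 17627 to 41399.5 UMIs was above that of all members of their library.

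Set beside the T cells that were not cycling, the dividing cells of HFD replicate 1 and JQF had Cd8+ and Zbtb16+ shares near those of the T cells around them. In HFD replicate 1 the Cd8+ share was 53.8% of cycling and 52.1% of other T cells. In JQF the Cd8+ share was 21.6% of cycling and 22.1% of other T cells, and the Zbtb16+ share was 51.0% and 48.4%. Other classes were further apart, with Foxp3+ cells at 5.66% and 3.27% in HFD replicate 1 and 3.37% and 1.63% in JQF, cells with both Cd4 and Cd8 UMIs at 6.60% and 1.27% and at 4.33% and 0.946%, and cells with no lineage UMI at 6.60% and 12.1% and at 5.77% and 12.4%. HFD replicate 2 stood apart, with Cd8+ cells at 84.5% of cycling and 59.2% of other T cells. Its Zbtb16+ cells were at 4.28% of cycling and 10.98% of other T cells. NCD shared the lower Zbtb16+ share among cycling cells, at 6.35% of cycling and 30.1% of other T cells. Foxp3+ cells of NCD were at 17.5% of cycling and 3.49% of other T cells. After thinning to 3000 UMIs, the NCD shares were 3.23% and 29.4% for Zbtb16+ cells and 8.06% and 1.38% for Foxp3+ cells. Cycling and other T cells were separated by the rule itself, so these pairs are given with no test.

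**Figure D2:**
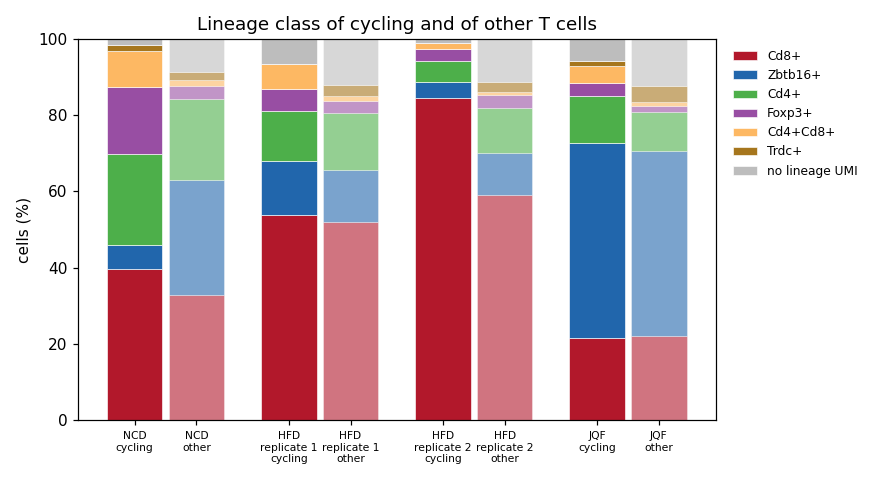
Lineage classes as percentages (vertical axis) of cycling T cells (full colours) and of the other T cells (pale colours) in each library (horizontal axis). The Cd8+ segment reaches 84.5% of the cycling cells of HFD replicate 2 and 21.6% of those of JQF, where the Zbtb16+ segment is 51.0%.

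The same data can be read as the share of each lineage that was dividing. Among Cd8+ T cells, 9.26% were cycling in NCD, 5.47% in HFD replicate 1, 12.5% in HFD replicate 2 and 5.51% in JQF. The intervals of the HFD replicates, 4.17% to 7.02% and 10.7% to 14.5%, did not overlap, and JQF lay with replicate 1. Among Zbtb16+ T cells, 1.75%, 5.51%, 3.76% and 5.91% were cycling in the same order. The JQF interval of 4.86% to 7.10% lay above that of NCD, 0.480% to 4.43%, and overlapped those of both HFD libraries. The NCD interval rests on 4 cycling cells, of which 1 was not mixed. All these intervals cover counting error within 1 library only, so they cannot tell whether the groups differ. Among Foxp3+ T cells, 29.7% were cycling in NCD (11 of 37), 8.82% in each HFD library (6 of 68 in each) and 10.9% in JQF (7 of 64). The NCD interval of 15.9% to 47.0% overlapped those of HFD, 3.31% to 18.2%. Among Cd4+ T cells the shares were 8.72%, 4.73%, 4.37% and 6.75%, with overlapping intervals. After thinning to 3000 UMIs, the cycling share of Cd8+ T cells was 3.70% for NCD, 3.62% and 7.86% for HFD and 2.91% for JQF, so that NCD and HFD replicate 1 lay close together. That of Zbtb16+ T cells was then 0.465%, 2.91%, 1.20% and 3.15%, and that of Foxp3+ T cells was 5 of 15, 0 of 49, 1 of 44 and 2 of 44.

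**Figure D3:**
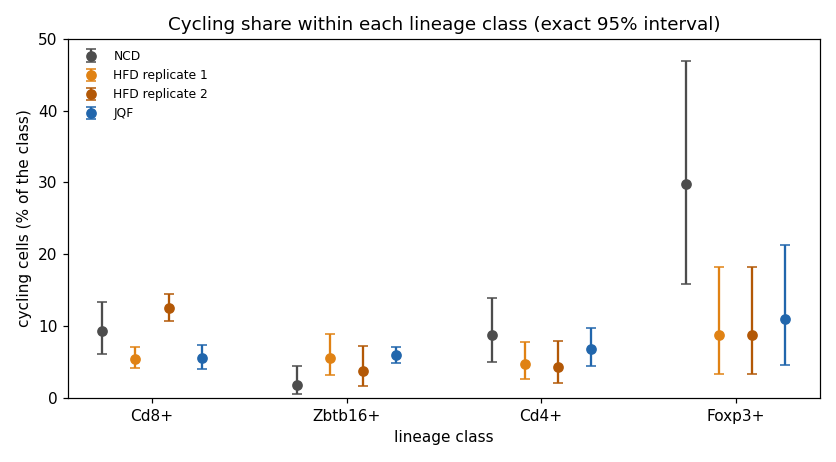
Cycling cells as a percentage of each lineage class (vertical axis) for Cd8+, Zbtb16+, Cd4+ and Foxp3+ T cells (horizontal axis), with 1 point and exact 95% interval per library. Foxp3+ cells of NCD are highest at 29.7%, on 37 cells, and Cd8+ cells of HFD replicate 2 stand at 12.5% against 5.47% in HFD replicate 1.

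The receptor genes of the dividing cells differed between the HFD replicates. Trav genes encode the variable segment of the receptor alpha chain, and a cell normally uses few of them. In HFD replicate 2, Trav13-4-dv7 (chromosome 14, 53757356 to 53757921, plus strand, GRCm38) was present in 50 of the 67 cycling Cd8+ cells with any Trav UMI, or 74.6% (62.5% to 84.5%). In HFD replicate 1 it was present in 1 of 24 such cells, and Trav16n (chromosome 14, 53351028 to 53351621, plus strand) was present in 11, or 45.8% (25.6% to 67.2%). Trav16n was present in 0 of the 67 cells of HFD replicate 2. Trav7d-3 (chromosome 14, 52744249 to 52744840, plus strand) was present in 11 cells of HFD replicate 2 and in 0 cells of HFD replicate 1. The 2 libraries of the HFD group thus had different leading Trav genes in their dividing Cd8+ cells.

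The Cd8+ cells that were not cycling carried the same leading genes. Trav13-4-dv7 was present in 326 of 440 such cells of HFD replicate 2 (74.1%), and Trav16n in 155 of 276 such cells of HFD replicate 1 (56.2%). In JQF, Trav16n was present in 1 of 12 cycling and 14 of 130 other Cd8+ cells, and Trav13-4-dv7 in 0 of either. In NCD, 3 of 25 cycling Cd8+ cells had any Trav UMI, which is too few to describe. Trav16n was found in 0 B cells of each library and Trav13-4-dv7 and Trav7d-3 in 0 of the 468 B cells of HFD replicate 2, which allows shares of up to 0.641% to 0.935% by library when the limit is set at 3 counts. Members of the duplicated Trav clusters are near copies, so reads may have been split between or assigned to a relative, and a UMI in 3′ data can come from a transcript that was not rearranged.

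In Zbtb16+ cells the leading gene was Trav11 (chromosome 14, 53519303 to 53519859, plus strand), the segment of the invariant natural killer T cell receptor. Trav11 was present in 15 of 23 cycling Zbtb16+ cells of JQF with any Trav UMI (65.2%, 42.7% to 83.6%), in 4 of 6 of HFD replicate 1 and in 1 of 3 of HFD replicate 2. In the Zbtb16+ cells that were not cycling the share was 67.9% in JQF and 60.3% and 57.6% in HFD, and in NCD it was 10 of 20 cells. Trav11 was present in 0 of the cycling Cd8+ cells with any Trav UMI in each library. These numbered 3, 24, 67 and 12 in NCD, HFD replicates 1 and 2 and JQF, and the JQF interval reached 26.5%. Among the other Cd8+ cells with any Trav UMI it was present in 0 of 34, 2 of 276, 3 of 440 and 9 of 130 cells. On the beta chain, Trbv13-2 and Trbv12-2 led in the cycling Zbtb16+ cells of JQF, in 12 and 9 of 30 cells with any Trbv UMI. In the cycling Cd8+ cells of HFD replicate 2, Trbv1 was present in 10 and Trbv12-2 in 9 of 36 cells, a wider spread of genes than on the alpha chain.

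**Figure D4:**
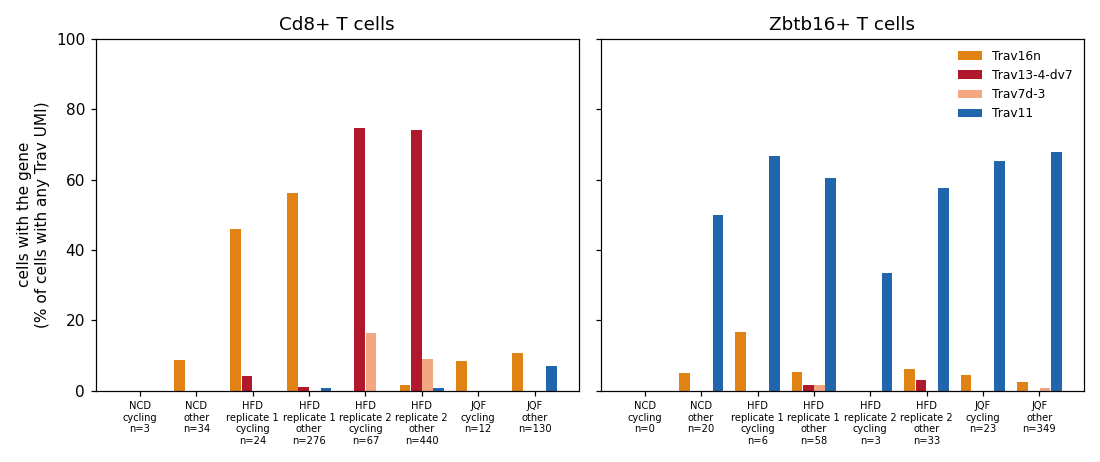
Cells with a UMI of each of 4 Trav genes as a percentage of cells with any Trav UMI (vertical axis), for cycling and other Cd8+ (left) and Zbtb16+ (right) T cells of each library (horizontal axis, n is the number of cells with any Trav UMI). Trav16n leads in Cd8+ cells of HFD replicate 1, Trav13-4-dv7 in those of HFD replicate 2, and Trav11 in Zbtb16+ cells, at 65.2% of the cycling ones in JQF.

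Each library held members with more replication UMIs and members with more mitotic UMIs. The balance depends on the genes in each list and on the rule, which chose cells by division genes such as the late gene Ube2c. For every cell the UMIs of 32 genes of DNA replication and nucleotide synthesis were set against those of 51 genes of mitosis. The mitotic sum was the larger in 46.0% of cycling T cells of NCD (33.4% to 59.1%), 48.1% of HFD replicate 1 (38.3% to 58.0%), 55.6% of HFD replicate 2 (48.2% to 62.9%) and 52.4% of JQF (45.4% to 59.3%). These intervals overlapped. Within JQF the mitotic sum was the larger in 55.6% of Cd8+ and 50.9% of Zbtb16+ members, with intervals of 40.0% to 70.4% and 41.0% to 60.8%. In HFD it was the larger in 45.6% of Cd8+ and 66.7% of Zbtb16+ members of replicate 1, and in 55.1% and 37.5% of those of replicate 2. The order of those classes was thus not the same in the HFD replicates, and it was not tested.

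Replication genes were at similar levels in HFD and JQF and somewhat lower in NCD. Pcna, the sliding clamp of the DNA polymerases, stood at 228 CPM in cycling T cells of NCD, 476 and 425 CPM in HFD and 428 CPM in JQF. Rrm2, the regulated subunit of ribonucleotide reductase, stood at 121 CPM in NCD, 176 and 213 CPM in HFD and 186 CPM in JQF. Among the mitotic genes, Ccnb2 stood at 122 CPM in NCD, 130.1 and 161 CPM in HFD and 117 CPM in JQF, and Cdk1 at 135, 155, 206 and 149 CPM. Cenpf, a kinetochore protein, was highest in NCD at 254 CPM and stood at 187 to 209 CPM in the other libraries. Summed over the 32 replication genes, the level was 2601, 3743, 3872 and 3518 CPM in NCD, HFD replicates 1 and 2 and JQF, and 3045, 3862, 3983 and 4050.5 CPM without the mixed cells. In other T cells Ccnb2 was at 0.767 to 1.44 CPM.

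To compare whole transcriptomes, UMIs were summed over the cycling T cells of each library and compared over 11990 genes by edgeR's quasi-likelihood test. At an adjusted p under 0.05, the share of genes called was 0% for HFD against NCD and 0% for JQF against HFD, that is 0 genes in each. An unadjusted p under 0.05 was found for 2459 and 730 genes. DESeq2 called 200 genes of 19681 (1.02%, with 0.3% higher and 0.716% lower) and 35 genes (0.178%, with 0.0864% higher and 0.0915% lower). Both comparisons use the same HFD libraries. With the mixed cells removed, edgeR called 151 of 11144 genes for HFD against NCD (1.35%, with 0.233% higher and 1.12% lower) and 17 for JQF against HFD (0.153%, with 0.0628% higher and 0.0897% lower). That removal was chosen after the data had been seen, and calls made under it are named as such. For HFD against NCD they included Krt8, an epithelial marker of the study, and the MHC class II genes H2-Aa, H2-Ab1 and H2-Eb1. Krt8 was then at 0.739 CPM in NCD and 81.3 and 23.3 CPM in HFD. For JQF against HFD the lowest adjusted p was that of Dmbt1 (6.34 log2, adjusted p = 1.92e-04 in edgeR). Dmbt1 was then at 1.31 and 1.63 CPM in HFD and 125 CPM in JQF. The source of these transcripts was not tested.

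Of the rule and lineage genes, to be reported whatever their result, none that entered the test passed it. Mki67, Top2a, Birc5 and Ube2c differed by -0.10 to 0.73 log2 for HFD against NCD and by -0.12 to 0.20 log2 for JQF against HFD. The T cell genes Cd3d, Cd3e and Cd3g summed to 1065 CPM in NCD, 1478 and 1915 CPM in HFD and 1214 CPM in JQF. Their median difference was 0.99 log2 for HFD against NCD, with 2 of 3 at an unadjusted p under 0.05 in edgeR. For JQF against HFD it was -0.46 log2. Cd8a and Cd8b1 encode the chains of the Cd8 coreceptor. Cd8b1 stood at 134 CPM in NCD, 263 and 552 CPM in HFD and 93.9 CPM in JQF, and Cd8a at 124, 202, 409 and 81.0 CPM. For both genes the JQF level was below both HFD libraries, and the log2 difference of Cd8b1 for JQF against HFD was -2.08 (SE 0.53, adjusted p = 0.589 in edgeR).

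Zbtb16 stood at 30.4 CPM in NCD, 57.6 and 27.4 CPM in HFD and 252 CPM in JQF. JQF lay above the other 3 libraries, and the log2 difference from HFD was 2.65 (SE 0.43, adjusted p = 0.453 in edgeR, and 4.96e-17 to 0.504 over the alternatives). Foxp3 stood at 49.8 CPM in NCD, 9.79 and 13.0 CPM in HFD and 4.10 CPM in JQF. NCD lay above the other libraries, and HFD against NCD was -1.95 log2 (SE 0.35, adjusted p = 0.108 in edgeR). With the mixed cells removed Foxp3 was lower in HFD by the test, at -2.37 log2 with adjusted p = 0.0330 in edgeR, while its adjusted p over the alternatives ran from 1.47e-04 to 0.520. Cd4 stood at 102, 62.8, 29.1 and 55.8 CPM. Trdc held too few UMIs to enter the test.

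Genes of the inhibitory receptor and chronic stimulation list were at lower levels in JQF than in both HFD libraries for 8 members. Its 16 genes summed to 5537 CPM in cycling T cells of NCD, 2204 and 5385 CPM in HFD and 1232 CPM in JQF. Of the 16 genes, 8 were at least 2-fold lower in JQF than in both HFD libraries on the CPM + 1 scale and 0 were at least 2-fold higher, against 1.68% of all genes tested lower and 2.94% higher (1.69% and 2.21% without mixed cells). The list's median difference for JQF against HFD was -2.03 log2, against -0.02 log2 over all genes tested, and 0 of the 16 passed the edgeR test. With the mixed cells removed, 9 were at least 2-fold lower and 2 passed. The list is one that had been chosen with earlier results of these data known.

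Pdcd1, which encodes the inhibitory receptor PD-1, stood at 145 CPM in cycling T cells of NCD, 99.0 and 305 CPM in HFD and 21.1 CPM in JQF. JQF was the lowest library, and the HFD replicates were far apart. Lag3, a receptor that binds MHC class II, stood at 51.9, 70.3, 141 and 10.5 CPM. Rgs16, a regulator of G protein signalling, stood at 111, 73.7, 176 and 6.56 CPM. Coch, a secreted matrix protein gene, followed another pattern, with 2.10 CPM in NCD, 25.9 and 121 CPM in HFD and 2.26 CPM in JQF, so that both HFD libraries lay above the other 2. Tox, a transcription factor of chronically stimulated T cells, stood at 2131 CPM in NCD, 756 and 1852 CPM in HFD and 270.2 CPM in JQF. For these 5 genes the adjusted p in edgeR for JQF against HFD was 0.453 to 0.664. With the mixed cells removed Lag3 fell by 3.48 log2 (adjusted p = 0.0251 in edgeR) and Rgs16 fell by 4.56 log2 (adjusted p = 0.0229 in edgeR). Over the alternatives the adjusted p ran from 1.34e-14 to 0.504 for Lag3 and from 1.45e-22 to 0.504 for Rgs16.

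The low level in JQF was also present within the Cd8+ members alone. There the 16 genes summed to 5305 CPM in NCD (25 cells), 3001 and 5885 CPM in HFD (57 and 158 cells) and 1475 CPM in JQF (45 cells). Pdcd1 stood at 265, 146, 344 and 57.0 CPM, and Lag3 at 129.9, 122, 169.6 and 17.7 CPM, in these cells. The Cd8+ class asks for a Cd8 UMI and does not exclude cells with Zbtb16 UMIs. In it, 6 listed genes of natural killer T-like cells summed to 204, 147, 111.5 and 546 CPM in the same order. In the Zbtb16+ members of JQF they summed to 695 CPM. The part of such cells in the low JQF level was not tested. In cycling Zbtb16+ cells JQF was not lowest: the list summed to 2042 CPM in NCD (4 cells), 1152 and 735 CPM in HFD (15 and 8 cells) and 1069 CPM in JQF (106 cells). The 8 endothelial genes summed to 9372, 89.9, 2441 and 120 CPM in the same cells. Of the 4 NCD cells, 1 was not mixed. The levels of NCD and HFD replicate 2 in this class thus include RNA of other cells. JQF was also lowest among the other T cells, with list sums of 4599 CPM in NCD, 2945 and 4605 CPM in HFD and 1660 CPM in JQF. The test of whether the JQF against HFD difference was unlike in cycling and other T cells called 0 of 15036 genes (0%), with 603 at an unadjusted p under 0.05 and 3 called by DESeq2 (0.0127%, with 0.00424% higher and 0.00849% lower). For HFD against NCD the same test called 2 genes (0.0133%), 1 higher and 1 lower (0.00665% each), DESeq2 called 15 (0.0637%, with 0.0382% higher and 0.0255% lower), and edgeR called 1 without mixed cells (0.0071%).

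**Figure D5:**
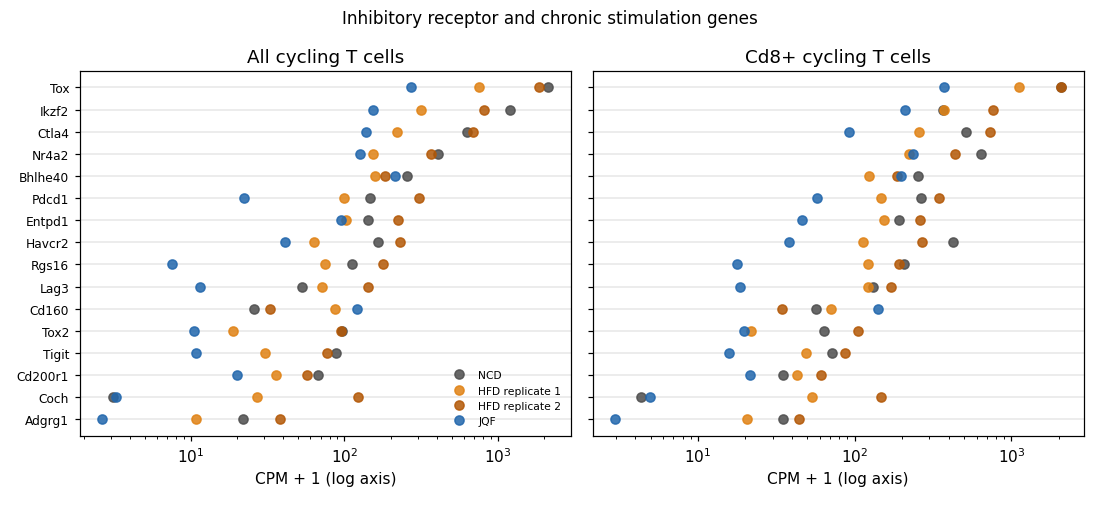
Levels of the 16 inhibitory receptor and chronic stimulation genes (CPM + 1 on a log axis, horizontal) in all cycling T cells (left) and in Cd8+ cycling T cells (right), with 1 point per library. On the left, 8 genes lie at least 2-fold lower in JQF than in both HFD libraries, while for Coch NCD at 2.10 CPM lies beside JQF at 2.26 CPM.

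Killing genes and effector cytokines summed to 6148 CPM in NCD, 9778 and 17326 CPM in HFD and 4249 CPM in JQF. In cycling Cd8+ cells the sum was 13119.9 CPM in NCD, 15935 and 20054 CPM in HFD and 6799 CPM in JQF. In cycling Zbtb16+ cells it was 773 CPM in NCD, 3343 and 2817 CPM in HFD and 3309 CPM in JQF, which lay between the HFD libraries. The limits given above for both classes hold here too, and 1 of the 4 NCD cells was not mixed. Of the 19 genes tested, 5 were at least 2-fold lower in JQF than in both HFD libraries and 2 were higher, against 1.68% and 2.94% of all genes tested. The 5 were the cytokine gene Il10, the chemokine genes Ccl5 and Ccl3, the granzyme gene Gzmk and the pore-forming protein gene Prf1. Ccl5 stood at 3222 CPM in NCD, 6430 and 9696 CPM in HFD and 1905 CPM in JQF. Gzmk stood at 112, 159.5, 417 and 24.0 CPM. Il10 stood at 71.3, 99.0, 145 and 8.20 CPM. With the mixed cells removed these 3 fell in JQF against HFD, with log2 differences of -6.43 for Il10, -1.99 for Ccl5 and -4.07 for Gzmk and adjusted p of 0.00100, 0.0394 and 0.0494 in edgeR. Over the alternatives the adjusted p ran from 2.53e-19 to 0.406 for Il10, from 7.75e-10 to 0.504 for Ccl5 and from 6.85e-21 to 0.504 for Gzmk. The 2 that were higher were Gzmc, another granzyme gene, and Il4, a type 2 cytokine gene. Il4 stood at 1.57 CPM in NCD, 5.18 and 30.9 CPM in HFD and 76.5 CPM in JQF. Within cycling Zbtb16+ cells it stood at 9.66 CPM in NCD (4 cells), 30.0 and 618 CPM in HFD (15 and 8 cells) and 128 CPM in JQF (106 cells). With so few cells in NCD and HFD, a single cell can set such a level, so the place of JQF among the libraries is not certain.

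Single genes of other lists also differed. Il2ra, the high-affinity chain of the interleukin 2 receptor, stood at 87.5 CPM in NCD, 22.5 and 22.8 CPM in HFD and 78.7 CPM in JQF. Both HFD libraries lay together and below the other libraries. The log2 difference was -1.80 for HFD against NCD (adjusted p = 0.0770 in edgeR) and 1.84 for JQF against HFD (adjusted p = 0.363 in edgeR), and both passed with the mixed cells removed (adjusted p = 0.0133 and 0.0431 in edgeR), with ranges over the alternatives of 1.33e-06 to 0.821 and 9.26e-07 to 0.533. Cxcr6, a homing receptor of liver resident T cells, stood at 65.5 CPM in NCD, 179 and 271 CPM in HFD and 157 CPM in JQF. For HFD against NCD it did not pass (adjusted p = 0.113 in edgeR). With the mixed cells removed it did, at 1.96 log2 (adjusted p = 0.0382 in edgeR). Other genes of its list went the other way. Of 10 tissue residence genes, 1 (Cxcr6) was at least 2-fold higher in both HFD libraries and 2 (Itgae and Itga1) were lower. The shares over all genes tested were 3.97% higher and 11.3% lower. With the mixed cells removed Itgae passed as well, at -2.67 log2 (adjusted p = 0.0490 in edgeR). Eno1, a glycolytic enzyme gene, stood at 36.2, 182, 202 and 134 CPM, with a log2 difference of 2.56 for HFD against NCD (SE 0.27, adjusted p = 0.0671 in edgeR).

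In HFD against NCD, 4 of 15 glycolysis genes and 5 of 18 oxidative phosphorylation genes were at least 2-fold higher in both HFD libraries and 0 of either were lower, against 3.97% of all genes higher and 11.3% lower (4.23% and 5.48% without mixed cells). None of these 9 passed edgeR, and with the mixed cells removed 2 of each list were 2-fold higher and Eno1 passed. All 8 endothelial genes were at least 2-fold lower in HFD than in NCD, and 6 were with the mixed cells removed. Of the macrophage genes, 5 (Csf1r, Lyz2, C1qa, C1qb and C1qc) were 2-fold higher in HFD, and 4 were with the mixed cells removed, when Lyz2 passed edgeR. The rule caps the sum of the C1q genes, so their levels are limited by the choice of members. In the same comparison 3 of 6 dendritic genes were 2-fold higher in HFD, 1 (Flt3) with the mixed cells removed, and 3 erythroid genes were lower, 0 with the mixed cells removed. In JQF against HFD, 4 of 6 dendritic genes (Clec9a, Cd209a, Xcr1 and Siglech) were 2-fold higher in JQF, with a list median of 1.86 log2, and 0 were with the mixed cells removed. The part of these cell types in the other differences was not tested. In JQF against HFD, 0 of the 18 oxidative phosphorylation genes and 1 of the 15 glycolysis genes was 2-fold apart from both HFD libraries. Of 27 spindle, 19 cyclin and mitotic kinase, and 22 replication genes, 0 were 2-fold higher or lower in either comparison, while Dut, a nucleotide synthesis gene, and Cenpw, a centromere protein gene, were 2-fold higher in both HFD libraries than in NCD. Without the mixed cells neither was, and the spindle gene Anln was. Of 15 dissociation and immediate early genes, 5 were 2-fold higher in JQF than in both HFD libraries, Fosb, Atf3, Fos, Egr1 and Jun, against 2.94% of all genes tested. With the mixed cells removed Fosb was higher, against 2.21% of all genes, and Hspa1b was lower.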

How the data were processed

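Single-cell 3′ RNA sequencing libraries of mouse liver were analysed, 1 from NCD, 2 from HFD and 1 from JQF. The deposited values are raw UMI counts for each gene in each barcode, which the authors made with Cell Ranger and the mm10 genome. The submitters' processing notes name Cell Ranger 6.0.1 and Seurat 4.0.3, while the file headers name other Cell Ranger versions, so whether intronic reads were counted was not settled. Genes were taken as the files name them, and 32158 of 32285 identifiers matched GENCODE M21 (GRCm38).

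The members, the gene lists and the lineage rule were chosen with earlier results of these data known. CPM were computed from UMIs summed over cells of a library. Summed counts were tested with edgeR 4.0.16 (R 4.3.3; TMM, filterByExpr, quasi-likelihood) with Benjamini-Hochberg adjustment at 0.05, and DESeq2 1.42.0 was an alternative. All 4 libraries entered the fit. The HFD pair gave its 1 residual degree of freedom, and NCD and JQF were assumed to vary alike. Each SE is the size of the log2 difference divided by the square root of F. A second fit with the library as block tested whether a group effect was unlike in cycling and other T cells. Shares were compared by an exact two-sided permutation test over libraries, with exact Clopper-Pearson 95% intervals per library.

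On simulated counts for HFD against NCD, with 11601 genes tested, the fit recovered 65.3% of 98 genes changed by 2 log2 and 89.9% of 99 genes changed by 3 log2, with 7 false calls. The simulation gave every gene the same fixed spread between libraries, not the spread of the HFD pair. Only genes above a minimum mean count were changed. These rates therefore do not give the power of the real comparisons. Doublets were scored with Scrublet in scanpy with an expected rate that grew with the called barcodes, and were kept in the main results. B cells, used for background, had at least 3 UMIs of Cd79a and Cd79b and 0 of Cd3. For classes, the first match counted in the order Foxp3+, Trdc+ (without Cd4 or Cd8b1), Cd4+Cd8+, Cd8+, Zbtb16+, Cd4+. A list's 2-fold counts use CPM + 1 over genes that entered the fit.

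Genes were to be named if they were among the 10 largest changes per direction past the threshold, with at least 50 CPM on average and both HFD libraries on one side, if they were passing list members, or if they were rule or lineage genes. In the comparisons between groups no gene met the first or second condition, and in the test of the difference from other T cells the list members Ckap2l and Hba-a1 passed. Other genes were chosen from the lists after their values were seen. Krt8, Dmbt1 and the MHC class II genes came from the calls without mixed cells.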

Additional observations from a re-analysis of the deposited data

Results flagged for a closer look

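The HFD against NCD difference was unlike in cycling and other T cells for 2 of 15036 genes (0.0133%), by the test of that difference itself in edgeR, with 857 at an unadjusted p under 0.05 and 15 called by DESeq2. Ckap2l, a spindle protein gene, had a difference of 4.48 log2 (cycling minus other, SE 0.29, adjusted p = 0.0345 in edgeR). It stood at 74.4, 66.8, 89.1 and 69.9 CPM in cycling T cells of NCD, HFD replicates 1 and 2 and JQF, and at 20.8, 0.810, 1.29 and 1.21 CPM in the other T cells. The outlying value was thus that of the NCD cells that were not cycling, where 27 of 744 cells held 190 UMIs and 1 cell held 39. Hba-a1, a globin gene, had a difference of -9.83 log2 (SE 0.43, adjusted p = 0.00655 in edgeR). It stood at 30.9, 0, 1.75 and 0.410 CPM in cycling T cells and at 3.07, 0.135, 176 and 1.39 CPM in the other T cells. In HFD replicate 2, 1 cell that was not cycling held 1067 of the 2319 Hba-a1 UMIs. Neither gene was called with the mixed cells removed, when 1 other gene was, or with predicted doublets removed.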

How the results depend on the processing

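No paired analysis was made, because neither the labels nor the study's methods pair mice between groups. Without 1 HFD library no residual degree of freedom was left, so gene counts were not recomputed and shares are values with no test. The cycling share for HFD minus NCD (-0.605 percentage points) turned positive after thinning to 3000 UMIs (0.758), with the stricter division threshold of 6 UMIs (0.554), over all kept cells (0.670) and without the B and C1q exclusion (0.0132), and ran from -2.51 to 1.30 with 1 HFD library left out. JQF minus HFD (-1.58) turned positive over all kept cells (0.711) and ran from -3.48 to 0.326 with 1 HFD library left out. The Cd8+ share kept its direction under all alternatives and ran from 14.1 to 44.8 points for HFD minus NCD and from -62.9 to -32.1 for JQF minus HFD with 1 HFD library left out. The Zbtb16+ share for JQF minus HFD was 29.5 after thinning and 34.4 over cells with a Cd4 or Cd8 UMI, and 36.8 to 46.7 with 1 HFD library left out. For HFD minus NCD it was -0.634 over cells with a Cd4 or Cd8 UMI and -2.07 to 7.80 with 1 HFD library left out. 

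Genes called for HFD against NCD were 0 of 11990 with RLE scaling and 229 of 11990 with library totals (218 lower). Library totals moved the median of all genes from 0.07 to -0.085 log2. With no filter 1666 of 19681 were called (1064 lower), with DESeq2 200 of 19681 (141 lower) and in Cd8+ members 403 of 9886 (350 lower). Without predicted doublets 267 of 10941 were called (205 lower), with the stricter threshold 262 of 11317 (230 lower) and without mixed cells 151 of 11144 (125 lower). For JQF against HFD they were 561 of 19681 with no filter (310 higher), 35 of 19681 with DESeq2 (17 higher) and 12 of 9886 in Cd8+ members (9 higher). They were 46 of 10941 without doublets (35 higher), 24 of 11317 with the stricter threshold (20 higher) and 17 of 11144 without mixed cells (7 higher). For the difference from other T cells they were 219, 15, 125, 261 and 1 for HFD against NCD (no filter, DESeq2, no doublets, stricter, no mixed cells) and 202, 3, 75, 137 and 0 for JQF against HFD. The genes tested numbered 23562, 23562, 14000, 15038 and 14092 in that order in both comparisons. The cause was not tested.

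Of the rule and lineage genes, small log2 differences changed sign. For HFD against NCD these were Mki67 (-0.0416 with library totals, -0.109 without doublets, -0.0597 with the stricter threshold, -0.0460 without mixed cells, and -0.0407 to 0.221 with 1 HFD library left out) and Top2a (1.10 in Cd8+ members). For JQF against HFD these were Top2a (-0.0425 with library totals, and -0.0124 to 0.0886 with 1 HFD library left out), Birc5 (0.128 without doublets, 0.141 without mixed cells, and -0.268 to 0.211 with 1 HFD library left out), Ube2c (0.164, 0.103, and -0.193 to 0.0295 in the same order) and Cd4 (-0.0503 to 0.965 with 1 HFD library left out). Of the other values, 204 kept their direction without newly passing the threshold, among them those with 1 HFD library left out, which have no test, and 17 newly passed it.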
